A study of Mus musculus with 36 samples.

Results

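Gene expression in the prefrontal cortex (PFC) was compared with that in the ventral tegmental area (VTA) of mice that had received vehicle only. The comparison holds 13 of the 36 arrays of the series, 8 of PFC and 5 of VTA, taken by their labels and by no measured value. The mice were male C57B1/6J of 20 to 26 g, and the vehicle was saline. They were given saline on each conditioning day of a place preference test, from day 3 to day 10, were tested on day 11, and were killed straight after that test, 24 h after the last injection. Each region was punched at 1 mm diameter from brain slices of 100 µm, so an array reads the mixed RNA of neurons, glia and vessels. Mice on the same schedule that received modafinil at 65 mg/kg on alternate days gave 8 further PFC and 5 further VTA arrays, which are a second set of arrays for the same regional contrast, and 5 arrays of the nucleus accumbens (NAC) of vehicle mice place the levels beside those of another region. Whether arrays of a group came from different mice is not stated in the labels, and p-values therefore speak to the spread between arrays, part of which may be technical.

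The VTA is a midbrain nucleus whose dopamine neurons project to the NAC and the PFC. Dopamine is made from tyrosine by tyrosine hydroxylase (Th) and aromatic amino acid decarboxylase (Ddc), loaded into vesicles by the monoamine transporter Slc18a2, and taken back up by the dopamine transporter Slc6a3, which modafinil blocks. Glutamate and GABA neurons lie among the dopamine cells. The PFC is layered cortex, in which glutamatergic pyramidal neurons marked by factors such as Tbr1, Neurod6 and Fezf2 are the main cell class and GABA interneurons the minor one.

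Region was also the line along which the samples were handled. For VTA the RNA of 2 tissue pieces was pooled where its integrity number was above 7, which left 5 samples of the VTA and NAC set unpooled, whereas PFC RNA was accepted at integrity numbers of 7 to 10, and the deposited log2 values of PFC lay higher, with a median of 7.23 against 6.79 for VTA. The median probe set differed by 0.459 as deposited, and by 0.011 after the 13 arrays had been quantile-normalized together, and all levels and differences below are on that joint log2 scale. Differences are PFC minus VTA. The 3′ to 5′ difference of the actin control probe sets, a sign of RNA quality, was 1.12 ± 0.10 (SD, n = 8) in PFC and 0.963 ± 0.096 (SD, n = 5) in VTA, and its part in the results was not tested. A shift shared by all genes would be removed by this step, and region, handling and the authors' normalization cannot be told apart. Of 27003 probe sets tested, 17744 (65.7%) passed an adjusted p of 0.05 in limma, 51% of them higher in PFC; on the deposited scale 23246 passed, 90.4% of them higher. Read as 1 probe set per gene, 4229 of 12642 genes were higher (33.5%) and 4202 were lower (33.2%), and with a difference of 1 log2 unit or more 570 were higher (4.51%) and 493 lower (3.9%). The filter on low means sets aside genes that are dim in the larger PFC group: without it 1619 probe sets were higher and 1809 lower by 1 or more, against 1179 and 1006 with it. A call alone is therefore common in these data, and the size of a difference and whether the arrays of the regions overlap carry more. Calls reached genes of other organs too: of 10 tested genes of a list for muscle, skin, liver and other non-neural tissue, 6 were higher and 3 lower, among them the skeletal muscle actin Acta1 (1.5) and the epidermal keratin Krt1 (−1.76).

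Both labels matched the markers of their regions. Tbr1, a transcription factor of cortical projection neurons, had levels of 8.76 to 9.55 with a median of 9.53 in PFC, and of 3.09, 3.35, 3.25, 3.34 and 3.32 in VTA 1 to 5. The difference was 6.12 (SE 0.12, 69.5-fold, adjusted p = 5.1e-15). All 5 VTA levels lay under 3.39, the limit of the dimmest 5% of probe sets on an array, so the size of that fold is not well measured. Slc6a3 had levels of 12.64, 11.45, 11.38, 10.05 and 11.03 in VTA 1 to 5, and of 5.87 to 7.02 with a median of 6.11 in PFC. Its difference was −5.10 (SE 0.31, 34.4-fold lower in PFC, adjusted p = 1.5e-09). The regions did not overlap for either gene. In bulk tissue, fewer cells of a type and less RNA per cell cannot be told apart.

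A few arrays stood somewhat apart within their own region. PFC 4 had the lowest Tbr1 (8.76) and the highest Slc6a3 (7.02) of the PFC arrays, and its mean correlation with the other PFC arrays was 0.99 against 0.994 to 0.995 for the rest. Together with PFC 3 it was highest in forebrain patterning genes and in genes of choroid plexus, meninges and blood. VTA 4 was the VTA array least like the others (0.989 against 0.992 to 0.994) and had the lowest level of each dopamine gene described next, while VTA 1 had the highest. Without PFC 3 and PFC 4, an alternative chosen after seeing the data, 18039 probe sets were called, and of those with a difference of 1 or more 1158 were higher and 1092 lower, against 1179 and 1006 with all arrays.

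The dopamine machinery separated the regions. All 7 genes of dopamine synthesis and transport that were read were lower in PFC, with a median difference of −2.93, beside a median of 0.0049 over all genes tested, and for all 7 the regions did not overlap, as they did not for 21.1% of all genes tested on the lower side and 20.7% on the higher side. Slc18a2 had levels of 11.90, 10.69, 10.52, 9.24 and 9.85 in VTA 1 to 5, and of 4.53 to 6.07 with a median of 4.68 in PFC, a difference of −5.55 (SE 0.36, adjusted p = 3.3e-09). Ddc had levels of 12.50, 11.40, 11.34, 10.28 and 10.90 in VTA 1 to 5, and of 7.37 to 7.88 with a median of 7.56 in PFC, a difference of −3.70 (SE 0.25, adjusted p = 4.9e-09). In all 4 of these VTA series, those of Slc6a3, Slc18a2, Ddc and Th, VTA 1 was highest and VTA 4 lowest. Th had levels of 11.08, 10.30, 9.89, 8.89 and 9.28 in VTA 1 to 5, and of 6.43 to 8.59 with a median of 6.61 in PFC, a difference of −2.93 (SE 0.40, 7.61-fold lower, adjusted p = 1.1e-05). For Th the regions came closest, since PFC 4 (8.59) lay just under VTA 4 (8.89), and PFC 3 (7.70) also stood above the other PFC arrays.

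**Figure D1:**
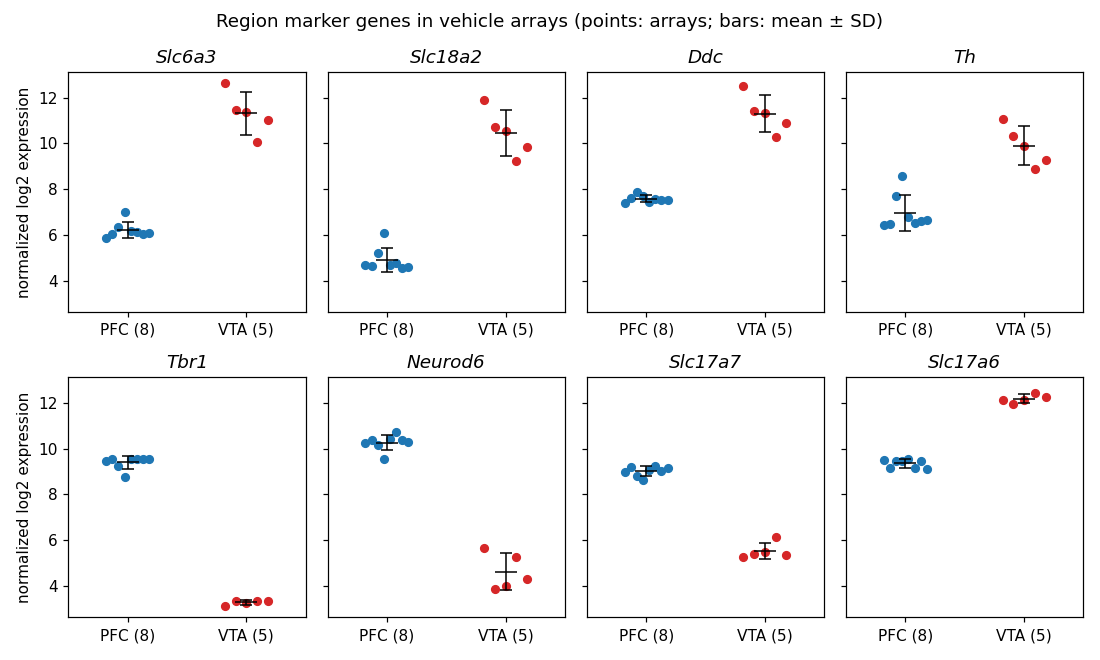
Normalized log2 level of 8 region markers in the 8 PFC (blue) and 5 VTA (red) arrays of vehicle mice. Points are arrays and bars are mean ± SD; the regions do not overlap for any of the 8 genes, and PFC 4, with Slc6a3 at 7.02 and Th at 8.59, is the highest PFC point of both.

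The promoters of 4 of these genes are shown because these genes differed most between the regions within the list, and because Th is a textbook target of factors that bind the cAMP response element and of the orphan receptor Nr4a2. The sequences are RefSeq's, build GRCm38.p6, 300 bases each from 250 before to 50 after the annotated start, 5′ to 3′ on the gene's strand. All 7 genes of the list had an entry. Capitals mark matches on either strand to the cAMP response element TGACGTCA, held by 1.79% of the 32851 promoters of the table, or to the Nr4a element AAAGGTCA, held by 1.51%.
Th (chr7:142899946-142900245, minus strand): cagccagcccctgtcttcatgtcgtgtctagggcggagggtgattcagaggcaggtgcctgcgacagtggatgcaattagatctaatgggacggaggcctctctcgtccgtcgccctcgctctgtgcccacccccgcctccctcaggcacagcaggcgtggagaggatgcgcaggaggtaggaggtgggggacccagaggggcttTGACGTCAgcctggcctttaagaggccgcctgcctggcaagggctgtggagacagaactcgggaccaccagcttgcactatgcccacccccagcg
Slc18a2 (chr19:59260628-59260927, plus strand): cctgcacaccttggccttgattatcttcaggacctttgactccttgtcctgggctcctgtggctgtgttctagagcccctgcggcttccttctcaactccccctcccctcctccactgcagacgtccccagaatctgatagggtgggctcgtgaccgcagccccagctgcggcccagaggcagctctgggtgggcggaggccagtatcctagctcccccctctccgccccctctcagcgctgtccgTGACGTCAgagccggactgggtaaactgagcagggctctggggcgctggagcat
Ddc (chr11:11898095-11898394, minus strand, 1 of 2 entries): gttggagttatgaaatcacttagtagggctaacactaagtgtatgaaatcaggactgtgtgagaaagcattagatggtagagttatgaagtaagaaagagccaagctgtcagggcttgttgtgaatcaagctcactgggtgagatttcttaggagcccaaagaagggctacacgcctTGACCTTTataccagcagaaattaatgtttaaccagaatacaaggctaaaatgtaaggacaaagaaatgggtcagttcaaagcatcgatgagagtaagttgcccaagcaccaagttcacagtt
Slc6a3 (chr13:73536497-73536796, plus strand): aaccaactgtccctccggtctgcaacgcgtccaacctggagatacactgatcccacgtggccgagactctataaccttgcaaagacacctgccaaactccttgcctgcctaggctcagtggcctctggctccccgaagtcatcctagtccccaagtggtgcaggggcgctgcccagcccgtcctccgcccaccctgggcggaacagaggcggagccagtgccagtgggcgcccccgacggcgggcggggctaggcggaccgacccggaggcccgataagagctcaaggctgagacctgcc
Th held the cAMP response element 45 bases before its start, and Slc18a2 held it 4 bases before, across the start. Ddc held the Nr4a element on the opposite strand, as TGACCTTT, 73 bases before the start of the entry shown. Its other entry held neither set of letters, nor did the windows of Slc6a3 and of Qdpr, Pts and Gch1, the rest of the list. Of 16 genes of the dopamine identity list, 20 of the cortical excitatory list and 22 of the immediate early list that had an entry, 0, 0 and 2 (Btg2 and Dusp1) held the cAMP response element, and none held the Nr4a element. A match is a run of letters and was not tested as a binding site.

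Genes that mark the identity of midbrain dopamine neurons mostly went the same way. Of 20 read, 13 were tested, and 12 of these were lower in PFC (33.2% of all genes tested), with a median difference of −2.73. The filter on low means admits a gene dim in PFC only where VTA is bright, so the count depends on it. Without the filter 19 of the 20 were lower, and with a stricter filter, which tests fewer genes, 4 were. Ret, the signalling receptor for GDNF-family growth factors, had levels of 11.89, 11.13, 10.89, 10.12 and 10.68 in VTA 1 to 5 and of 6.00 to 7.37 in PFC, a difference of −4.31 (SE 0.25). The other tested probe set of Ret was called lower by −1.53. The forkhead factors Foxa1 and Foxa2, which specify and maintain dopamine neurons, differed by −4.02 (SE 0.10) and −2.65 (SE 0.21), Sncg, gamma-synuclein, by −3.19, and Chrna6, a nicotinic receptor subunit of dopamine terminals, by −3.18. Nr4a2 (Nurr1), a factor needed for dopamine neuron development, differed by far less, −0.71 (SE 0.24, adjusted p = 0.015), with PFC levels of 8.92 to 9.72 against 9.47 to 11.1 in VTA, so the regions overlapped. That call was lost without VTA 1 (−0.58), in a fit of all 18 vehicle arrays (−0.70) and on the deposited scale (−0.26). Of the 5 probe sets of Nr4a2, 4 were called lower in PFC, down to −0.92, and 1 higher (0.36). Kcnj6, the GIRK2 channel of the dopamine neuron, did not pass on its brightest probe set (0.37, SE 0.17, adjusted p = 0.073). That probe set became a higher call without PFC 8 (0.43), VTA 1 (0.48) or VTA 3 (0.46). Of the 3 tested probe sets of Kcnj6, 1 was called higher in PFC and 0 lower.

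Position along the neural tube was written in transcription factor genes. Of 29 midbrain and hindbrain patterning genes that were read, 9 were bright enough over all arrays to be tested. Of these 8 were lower in PFC (33.2% of all genes tested), Ebf3 by −4.08 (SE 0.13) and Ebf1 by −2.27 (SE 0.19) as the largest beside Foxa1 and Foxa2. Gata2 did not pass (−0.06, adjusted p = 0.68). A gene dim in PFC passed the filter on low mean levels only where VTA was bright, so this count alone cannot give the direction of the list. Without the filter 23 were lower and 2 higher, and with a stricter filter, which tests fewer genes, 0 were lower. With a filter on the mean of the brighter region, added after seeing the data, 10 more were tested and all 10 were lower. That filter admits a gene through the region where it is bright, so these 10 cannot give the direction of the list either. The other 20 missed the main filter, which sets aside a gene that is dim in the larger PFC group. A pair of these were chosen after their values were seen. Otx2, the homeobox factor that sets the forebrain and midbrain territory, had levels of 8.17, 8.23, 8.01, 9.21 and 7.98 in VTA 1 to 5 and of 2.71 to 3.06 in PFC. Irx3, an Iroquois factor of the diencephalon and midbrain, had levels of 9.34, 9.57, 9.15, 9.35 and 9.10 in VTA and of 3.95 to 4.22 in PFC. Among the fixed names Pitx3, a factor of dopamine neurons, averaged 5.97 ± 0.11 (SD, n = 8) in PFC and 6.62 ± 0.22 (SD, n = 5) in VTA, and En1, the midbrain engrailed factor, 2.95 ± 0.11 and 4.76 ± 0.98.

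Genes that pattern the forebrain were mostly higher in PFC: 10 of 13 tested were higher, 2 were lower and 1 did not pass, with a median of 1.10. Among all genes tested 33.5% were higher and 33.2% lower. The LIM factors Lhx2 and Lhx6, of cortical progenitors and of interneurons from the medial ganglionic eminence, differed by 3.15 (SE 0.40) and 2.76 (SE 0.13). Meis2, a factor of the striatum and its progenitors, belonged to the list of striatal projection neurons and differed by 2.93 (SE 0.26). That list was mixed: of 16 tested 6 were higher, 5 lower and 5 not called, with a median of 0.054. Dlx1, a factor of forebrain GABA neurons, had levels of 6.14, 4.33, 8.12, 5.08 and 7.08 in VTA 1 to 5 and of 8.27 to 9.91 with a median of 8.37 in PFC, a difference of 2.53 (SE 0.51, adjusted p = 0.00046). The high end of PFC was again PFC 4 (9.91) and PFC 3 (9.32), and VTA 3 came close to the lowest PFC array. Nr2f2 (COUP-TFII), an interneuron and thalamic factor, was lower in PFC (−1.08, SE 0.14), as was Six3, which its 2 probe sets called in opposite directions (−1.05 and 0.30). The mean level of the whole forebrain patterning list was 9.47 in PFC 4 and 9.16 in PFC 3, against 8.56 to 8.82 in the other PFC arrays and 7.18 to 7.64 in VTA.

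Markers of cortical excitatory neurons had the largest median difference of the 30 lists on the other side. Of 25 tested, 21 were higher in PFC, 1 was lower and 3 did not pass, with a median of 2.00, and for 17 of the 21 the regions did not overlap (20.7% of all genes tested). Neurod6, a factor of pyramidal neurons, had levels of 5.67, 3.88, 4.01, 5.28 and 4.29 in VTA 1 to 5 and of 9.56 to 10.7 with a median of 10.3 in PFC, a difference of 5.64 (SE 0.27). Fezf2, which specifies deep-layer neurons that project below the cortex, had levels of 5.13 to 5.36 in VTA and of 8.27 to 9.86 in PFC, a difference of 4.08 (SE 0.19), with PFC 4 lowest. Mef2c, an activity-dependent factor of cortical neurons, differed by 3.93 (SE 0.11). Foxp2, a factor of layer 6 that thalamic and midbrain neurons also express, was the member that was lower in PFC (−1.06, SE 0.26, adjusted p = 0.0023), and Rprm, a deep-layer marker, did not pass (0.14, adjusted p = 0.73). VTA 4 had the highest mean level of this list among VTA arrays, 8.25 against 7.78 to 8.00, and PFC 4 the lowest among PFC arrays, 9.81 against 9.99 to 10.2.

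**Figure D2:**
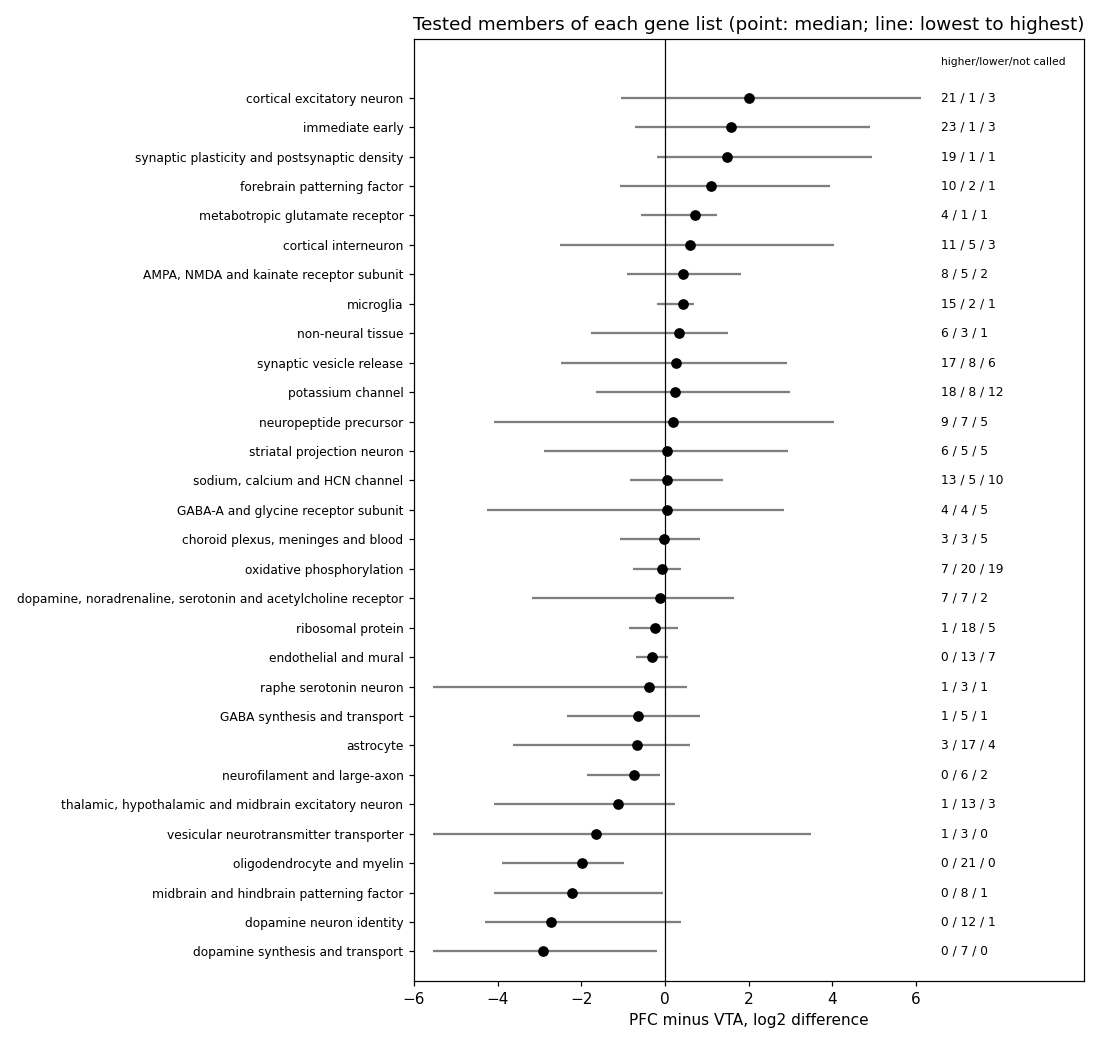
PFC minus VTA differences on the log2 scale for the tested members of 30 gene lists. Points are medians, lines run from the lowest to the highest member, and the figures at the right count members called higher in PFC, called lower and not called; the dopamine lists are at the bottom with 0 members higher, and cortical excitatory genes are at the top with 21 of 25.

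The vesicular glutamate transporters differed between the regions in opposite directions. Slc17a7 (VGLUT1), the transporter of cortical glutamate neurons, had levels of 5.24, 5.38, 5.48, 6.14 and 5.34 in VTA 1 to 5 and of 8.64 to 9.24 with a median of 9.05 in PFC, a difference of 3.5 (SE 0.14, adjusted p = 1.4e-11). Slc17a6 (VGLUT2), the transporter of subcortical glutamate neurons, had levels of 12.12, 11.93, 12.13, 12.44 and 12.27 in VTA and of 9.10 to 9.53 with a median of 9.46 in PFC, a difference of −2.83 (SE 0.10, adjusted p = 4e-12). Neither overlapped. VTA 4, lowest in dopamine genes, was highest in both glutamate transporters among VTA arrays.

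Markers of thalamic, hypothalamic and midbrain excitatory neurons were mostly higher in VTA than in PFC. In the list of these neurons 13 of 17 tested genes were lower in PFC and 1 higher (33.2% and 33.5% of all genes tested), with a median of −1.12. Tcf7l2, a Wnt-pathway factor strong in the thalamus, had levels of 9.51, 10.86, 9.46, 11.33 and 10.27 in VTA 1 to 5 and of 6.5 to 7.36 in PFC, a difference of −3.55 (SE 0.27). Pmch, the melanin-concentrating hormone precursor of lateral hypothalamic neurons, had levels of 8.50, 7.2, 10.01, 9.25 and 9.72 in VTA and of 5.62 to 6.04 in PFC, a difference of −3.06 (SE 0.34). Hypothalamic peptide genes of the list did not all go this way: Hcrt, the orexin precursor, did not pass (−0.071, adjusted p = 0.60), and Oxt, oxytocin, was the member that was higher in PFC (0.23, adjusted p = 0.018). Tcf7l2 and Pmch did not rank the VTA arrays alike: VTA 2 was second for Tcf7l2 and lowest for Pmch. Rora, a nuclear receptor of thalamic neurons, did not pass (0.11, SE 0.11, adjusted p = 0.41) on its brightest probe set, but 4 of its 7 tested probe sets were called lower, down to −1.38, and none higher. Over the whole list of 21 genes the mean level was 8.50 to 9.10 in VTA, highest in VTA 4, and 7.45 to 7.78 in PFC. The raphe list held Slc18a2 and Ddc, which dopamine neurons share, whereas its defining serotonin genes, chosen after their values were seen, were dim in both regions: Tph2, the serotonin-making enzyme, averaged 3.67 in PFC and 3.95 in VTA, and Slc6a4, the serotonin transporter, 6.26 and 5.59. Whether RNA from neighbouring nuclei contributed to these or other differences was not tested.

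GABA genes did not move as a block. Gad1, which makes GABA, did not pass (0.34, SE 0.31, adjusted p = 0.35): its levels in VTA 1 to 5 were 11.84, 12.83, 12.12, 10.26 and 11.75, and PFC ran from 11.8 to 12.9. Gad2, the second GABA-making enzyme, was lower in PFC (−0.98, SE 0.24, adjusted p = 0.0022), as was Slc32a1, the vesicular GABA transporter, by a margin that 10 of 13 single omissions removed (−0.47, SE 0.19, adjusted p = 0.043). VTA 4, at 10.26 for Gad1, was the lowest array of all, and PFC 4, at 12.93, the highest. Slc6a11 (GAT-3), the GABA transporter of astrocytes, differed by −2.35 (SE 0.14), and Abat, which breaks GABA down, by −1.35 (SE 0.08). Of 7 genes of GABA synthesis and transport 5 were lower, 1 higher and 1 not called, with a median of −0.66. Among all genes tested 33.2% were lower and 33.5% higher. On the deposited scale 2 genes of the list were lower and 2 higher. The gene higher on the joint scale, Slc6a13 (GAT-2), a GABA transporter of the meninges (0.83, adjusted p = 0.045), was highest in PFC 3 (8.78) and PFC 4 (8.68). Its call was lost in 8 of 13 single omissions, among them those of PFC 3 and PFC 4.

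Interneuron markers went both ways. Of 19 tested, 11 were higher in PFC, 5 lower and 3 not called, with a median of 0.60. Of all genes tested 33.5% were higher and 33.2% lower. Vip, the peptide of disinhibitory interneurons, had levels of 6.38, 7.57, 6.15, 6.23 and 6.5 in VTA 1 to 5 and of 10.3 to 11.1 in PFC, a difference of 4.04 (SE 0.21). Npy, neuropeptide Y, differed by 2.90 (SE 0.10) and Crh, corticotropin-releasing hormone, by 2.23 (SE 0.23). The calcium-binding protein calretinin, Calb2, had levels of 10.98 to 11.6 in VTA and of 8.53 to 10.9 with a median of 8.91 in PFC, a difference of −1.98 (SE 0.34), and PFC 4 (10.92) and PFC 3 (10.02) were again its highest PFC arrays. Prox1, a factor of interneurons from the caudal ganglionic eminence that thalamic neurons also express, was lower in PFC by −2.50 (SE 0.14).

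Of 21 neuropeptide precursors tested 9 were higher in PFC and 7 lower, beside 33.5% and 33.2% of all genes tested. Nts, neurotensin, had levels of 9.21, 8.95, 10.07, 9.29 and 9.55 in VTA 1 to 5 and of 4.67 to 6.09 in PFC, a difference of −4.10 (SE 0.23). Cck, cholecystokinin, which cortical neurons make in large amounts and many dopamine neurons also make, was higher in PFC by 2.59 (SE 0.10). Tac1, the substance P precursor, was lower in PFC (−1.04, SE 0.17), and Penk, proenkephalin, did not pass (0.19, SE 0.31, adjusted p = 0.60). Tacr3, the neurokinin 3 receptor, which is expressed on VTA dopamine neurons, differed by −3.60 (SE 0.13).

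Receptors for the fast transmitters differed by subunit. Gria3 and Gria2, AMPA receptor subunits, were higher in PFC by 1.82 (SE 0.08) and 1.39 (SE 0.05). The NMDA subunit Grin3a was lower (−0.92, SE 0.09), and Grin2d did not pass (−0.03, adjusted p = 0.73). In all 8 of 15 AMPA, NMDA and kainate subunits were higher and 5 lower, beside 33.5% and 33.2% of all genes tested. Glra1, the glycine receptor subunit of brainstem and spinal cord, had levels of 9.06, 9.51, 9.14, 8.62 and 9.39 in VTA 1 to 5 and of 4.48 to 5.35 in PFC, a difference of −4.25 (SE 0.17). Gabrd, the extrasynaptic GABA-A subunit, was higher in PFC by 2.85 (SE 0.20), as was Gabra4, often its partner, by 1.43 (SE 0.12), and Gabrb2 did not pass (0.04, adjusted p = 0.63). Grm2, the presynaptic metabotropic glutamate receptor, was higher by 1.24 (SE 0.14), and Grm8 did not pass (0.02, adjusted p = 0.92). Of 6 metabotropic receptors 4 were higher and 1 lower, beside the same 33.5% and 33.2%.

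Receptors for dopamine went in opposite directions. Drd2, the D2 receptor, which is also the autoreceptor of dopamine neurons, had levels of 9.26, 8.63, 8.34, 7.35 and 8.18 in VTA 1 to 5 and of 5.21 to 5.69 in PFC, a difference of −2.89 (SE 0.22). The order of the VTA arrays from VTA 1 to VTA 4 at the ends was that of the dopamine genes. Drd1, the D1 receptor, had levels of 6.63 to 6.94 in VTA and of 7.67 to 8.94 with a median of 8.65 in PFC, a difference of 1.65 (SE 0.18). The M1 muscarinic receptor Chrm1 was higher in PFC by 1.63 (SE 0.07), and the serotonin receptors Htr2c and Htr7 were lower by −2.06 (SE 0.17) and −1.76 (SE 0.07). Of 16 amine and acetylcholine receptors tested 7 were higher and 7 lower, beside 33.5% and 33.2% of all genes tested.

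Among ion channels, 18 of 38 potassium channel genes were higher in PFC and 8 lower, with a median of 0.24. Of all genes tested 33.5% were higher and 33.2% lower. The largest were modifying subunits of cortical Kv channels that pass no current on their own: Kcnv1 differed by 2.99 (SE 0.07), Kcng1 by 2.62 (SE 0.14) and Kcnf1 by 2.60 (SE 0.09). Kcnj10 (Kir4.1), the potassium channel of astrocytes and oligodendrocytes, was lower by −1.66 (SE 0.07), and Kcnc1 (Kv3.1), of fast-spiking neurons, by −1.06 (SE 0.14), although of its other 3 probe sets 1 was higher (0.53) and 2 were not called. Of 28 sodium, calcium and HCN channel genes 13 were higher and 5 lower, beside the same 33.5% and 33.2%, with a median of 0.043. The auxiliary subunits Cacng3 (1.38, SE 0.08) and Cacna2d1 (1.33, SE 0.11) had the largest differences.

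Genes of vesicle release went both ways. Stx1a, the plasma membrane syntaxin, was higher in PFC by 2.92 (SE 0.11) and Sv2b, a vesicle glycoprotein of glutamate terminals, by 2.67 (SE 0.10). Syt2 and Vamp1, the fast calcium sensor and the vesicle SNARE that predominate in caudal brain regions, were lower by −2.48 (SE 0.22) and −1.86 (SE 0.19). The other tested probe set of Syt2 was called lower by −0.37. In all 17 of 31 release genes were higher and 8 lower, beside 33.5% and 33.2% of all genes tested. Among 8 neurofilament and large-axon genes 6 were lower and none higher, beside the same 33.2% and 33.5%. Nefh and Nefm, the heavy and medium neurofilaments, differed by −1.28 (SE 0.19) and −1.01 (SE 0.20). Nefl, the light one, did not pass on its brightest probe set (−0.12, adjusted p = 0.27). That probe set was called lower with median centring (−0.26) and without VTA 4 (−0.22), and the other probe set of Nefl was called lower (−0.38).

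Postsynaptic and activity-linked genes were higher in PFC nearly throughout. Of 21 genes of synaptic plasticity and the postsynaptic density 19 were higher, 1 (Camk2g, −0.19, a call lost in 7 of 13 single omissions and with median centring) lower and 1, the scaffold Dlg4 (PSD-95), did not pass (0.08, adjusted p = 0.34), with a median of 1.48. The other tested probe set of Dlg4 was called lower (−0.22). Ddn, dendrin of dendritic spines, differed by 4.94 (SE 0.15), Itpka, a spine kinase, by 4.10 (SE 0.07), and Nrgn, neurogranin, by 3.44 (SE 0.20). Camk2a, the main kinase of the postsynaptic density, had levels of 10.02, 9.36, 10.26, 10.40 and 10.65 in VTA 1 to 5 and of 13.3 to 13.5 in PFC, a difference of 3.24 (SE 0.15). All 6 tested probe sets of Camk2a were called higher, by 0.23 to 3.24. The regions did not overlap for 18 of the 19, beside 20.7% of all genes tested.

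Immediate early genes, which neurons transcribe within minutes of activity, followed the same pattern in mice killed straight after the place preference test. Of 27 tested, 23 were higher in PFC, with a median of 1.57, for 20 of these the regions did not overlap (20.7% of all genes tested), and 1, Nr4a2, was lower. Egr3 had levels of 6.82, 6.33, 7.86, 7.00 and 7.82 in VTA 1 to 5 and of 11.8 to 12.2 in PFC, a difference of 4.90 (SE 0.21, 29.8-fold). The other tested probe set of Egr3 was also called higher, but by only 0.39. Egr2 had levels of 4.81 to 5.24 in VTA and of 8.93 to 9.79 in PFC, a difference of 4.42 (SE 0.15). Arc, whose protein moves AMPA receptors, differed by 2.94 (SE 0.10), and Npas4, a calcium-dependent factor of inhibitory synapses, by 2.90 (SE 0.18), with PFC levels of 8.60 to 9.72 that spread more widely than those of Arc. Jun (0.06, adjusted p = 0.66) and Klf4 (0.01, adjusted p = 0.96) did not pass on the joint scale, although the other tested probe set of Jun was called higher (0.26). No animal without handling or testing was among these arrays, so a regional difference in resting levels and one in the response to the test cannot be told apart.

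**Figure D3:**
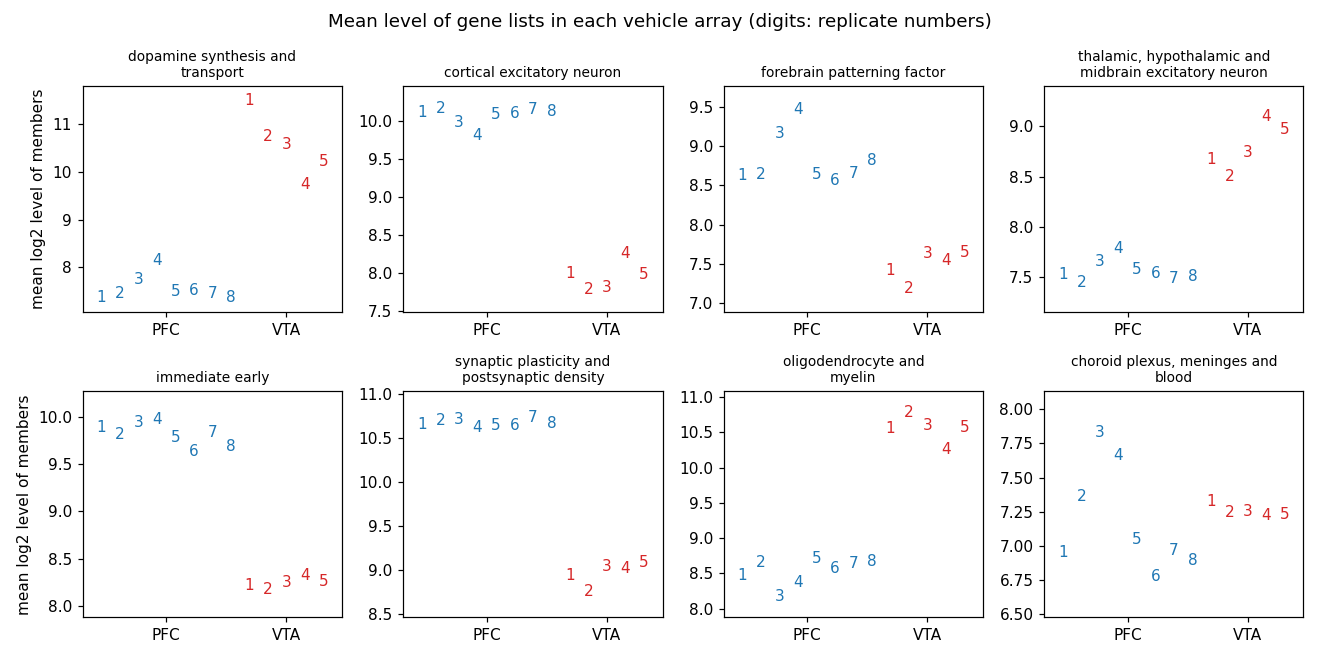
Mean normalized log2 level of 8 gene lists in each vehicle array, with PFC in blue and VTA in red and each array drawn as its replicate number. VTA 1 is highest and VTA 4 lowest for dopamine genes (11.48 and 9.72), PFC 4 and PFC 3 are highest for forebrain patterning genes (9.47 and 9.16), and the regions overlap only in the list of choroid plexus, meninges and blood.

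Glial genes divided by cell class. All 21 oligodendrocyte and myelin genes that were read and tested were lower in PFC, with a median of −1.98 and no overlap between the regions for any of them (21.1% of all genes tested), and 21 were lower on the deposited scale as well. Mobp, a myelin structural protein, had levels of 13.34, 13.57, 13.47, 13.14 and 13.37 in VTA 1 to 5 and of 9.48 to 10.6 in PFC, a difference of −3.13 (SE 0.15). Klk6, a protease of oligodendrocytes, differed by −3.91 (SE 0.12), Gjb1, the connexin 32 of oligodendrocytes, by −2.69 (SE 0.15), and Nkx6-2, a factor of myelinating cells, by −2.60 (SE 0.11). Mbp, myelin basic protein, was near the top of the array's range in VTA (14.2 to 14.4) and at 12.3 to 13.1 in PFC, a difference of −1.42 (SE 0.12), with 7 of its 8 probe sets lower and 1 higher (0.28).

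Astrocyte genes were mostly lower in PFC, 17 of 24, with 3 higher, 4 not called and a median of −0.67. Over all genes tested the shares were 33.2% lower and 33.5% higher. Agt, angiotensinogen, which astrocytes of caudal regions make, had levels of 10.48, 10.14, 9.99, 10.60 and 10.17 in VTA 1 to 5 and of 6.48 to 6.88 in PFC, a difference of −3.63 (SE 0.10). Itih3, an inter-alpha-trypsin inhibitor chain, differed by −1.68 (SE 0.13) and Aqp4, the water channel of astrocyte endfeet, by −1.15 (SE 0.16). Slc1a2 (GLT-1), the main glutamate transporter of forebrain astrocytes, went the other way (0.58, SE 0.04). Gfap (−0.32, SE 0.51, adjusted p = 0.60), the intermediate filament of astrocytes, and Glul (−0.01, adjusted p = 0.84), glutamine synthetase, did not pass, although the other probe set of Glul was called lower (−0.73) and median centring called this one lower as well (−0.18). Gfap ran from 5.59 to 9.34 across PFC arrays.

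Microglial genes were slightly higher in PFC, 15 of 18 tested, with 2 lower (33.5% and 33.2% of all genes tested) and a median of 0.43. The purinergic receptors P2ry13 and P2ry12 differed by 0.69 (SE 0.10) and 0.62 (SE 0.10), Aif1 (IBA1) by 0.69 (SE 0.06) and Cx3cr1, the fractalkine receptor, by 0.43 (SE 0.06), while C1qa did not pass (−0.14, adjusted p = 0.082) and became a lower call with median centring (−0.17) and without PFC 3 (−0.17) or VTA 4 (−0.17). None reached 1 log2 unit. Of 20 endothelial and mural genes 13 were lower and none higher (33.2% and 33.5% of all genes tested), with a median of −0.32. Rgs5 and Pdgfrb of pericytes differed by −0.53 (SE 0.09) and −0.52 (SE 0.13). Cldn5, the tight junction protein of endothelium, did not pass (−0.07, SE 0.08, adjusted p = 0.42). These small shifts depended on the scale: on the deposited values 1 endothelial and mural gene was lower and 8 were higher, whereas 13 remained the count lower with median centring. Microglial, endothelial and choroid, meningeal and blood lists were highest in PFC 3 or PFC 4 among PFC arrays, at 8.91, 8.86 and 7.83, and without those arrays 12 microglial genes were higher and 3 lower, and 1 endothelial and mural gene was higher and 16 lower.

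Ribosomal protein and oxidative phosphorylation genes served as lists of functions that all cells share. Of 24 ribosomal genes 18 were lower in PFC and 1 higher, beside 33.2% and 33.5% of all genes tested, with a median of −0.25. Rps6 had a difference of −0.85 (SE 0.10) and Rps2 of 0.30 (SE 0.05). Of 46 oxidative phosphorylation genes 20 were lower and 7 higher, beside the same 33.2% and 33.5%, with a median of −0.073. Ndufb5, a complex I subunit, had the largest difference at −0.76 (SE 0.04). On the deposited scale the splits turned over, to 13 higher and 1 lower of the ribosomal genes and 41 higher and 1 lower of the oxidative phosphorylation genes. With within-array ranks 0 ribosomal genes were higher and 7 lower, and 0 oxidative phosphorylation genes were higher and 8 lower, and without VTA 4 the higher oxidative phosphorylation genes were 4. Median centring gave 1 higher and 19 lower ribosomal genes, and 7 higher and 21 lower oxidative phosphorylation genes. The part of normalization in these small differences was not tested. Spiked hybridization controls, which carry no tissue RNA, differed by a median of −0.45 over 18 probe sets on the joint scale, poly-A controls by −0.061 over 27, and none of them by 1 or more.

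The largest differences included genes that no list held. Crym, mu-crystallin, a thyroid hormone-binding protein, had levels of 4.57 to 4.75 in VTA and of 9.86 to 10.7 in PFC, a difference of 5.75 (SE 0.12). Smoc2, a matricellular protein, differed by 5.48 (SE 0.21), Rin1, a Ras effector of forebrain neurons, by 5.46 (SE 0.10), Dtl, a ubiquitin ligase substrate receptor, by 5.15 (SE 0.07) and Ccn3, a matricellular protein, by 4.40 (SE 0.17). On the other side Dgkk, a diacylglycerol kinase, had levels of 9.25, 9.15, 9.69, 9.12 and 9.42 in VTA 1 to 5 and of 4.76 to 5.00 in PFC, a difference of −4.46 (SE 0.08). A pair of genes high in PFC carry names from other tissues. Krt12, the corneal keratin, had levels of 4.75, 4.23, 6.6, 4.45 and 6.97 in VTA and of 9.20 to 9.84 in PFC, a difference of 4.22 (SE 0.39). Trbv1, a segment of the T-cell receptor beta chain, had levels of 4.46 to 4.92 in VTA and of 7.06 to 9.30 in PFC, where PFC 4 was lowest, a difference of 4.16 (SE 0.32). The other tested probe set of Trbv1 was called higher by 0.56.

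The same contrast in modafinil mice, on arrays that share none with the vehicle comparison, called 3998 of 12672 genes higher (31.5%) and 3653 lower (28.8%), and 528 (4.17%) and 430 (3.39%) with a difference of 1 or more. Of the 570 genes higher by 1 or more in vehicle mice, 458 were called the same way and size in modafinil mice, 80.4% of the vehicle genes, and 86.4% of the modafinil genes were in the vehicle set. Of the 493 lower by 1 or more, 361 recurred, 73.2% of the vehicle genes and 84% of the modafinil genes. A gene of that size called in opposite directions occurred once among those higher in vehicle mice and not at all among those lower. For Tbr1 the difference was 6.34 in modafinil mice beside 6.12, for Egr3 4.79 beside 4.90, and for Slc17a6 −3.20 beside −2.83.

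Dopamine genes had smaller differences in the modafinil arrays, where Slc6a3 stood at −3.34 beside −5.10 in vehicle, Th at −1.89 beside −2.93, Ddc at −2.42 beside −3.70 and Chrna6 at −1.51 beside −3.18. Slc18a2, Foxa1, Ebf3, Glra1 and Drd2 missed the filter on low mean levels there. Krt12 was at 1.69 beside 4.22 and Gabra4 at 0.06 (adjusted p = 0.77) beside 1.43. Whether the regional difference itself differed between treatments was not tested, and in vehicle mice Slc6a3, Slc18a2, Ddc and Th each ranged by over 2 log2 units between VTA 1 and VTA 4.

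**Figure D4:**
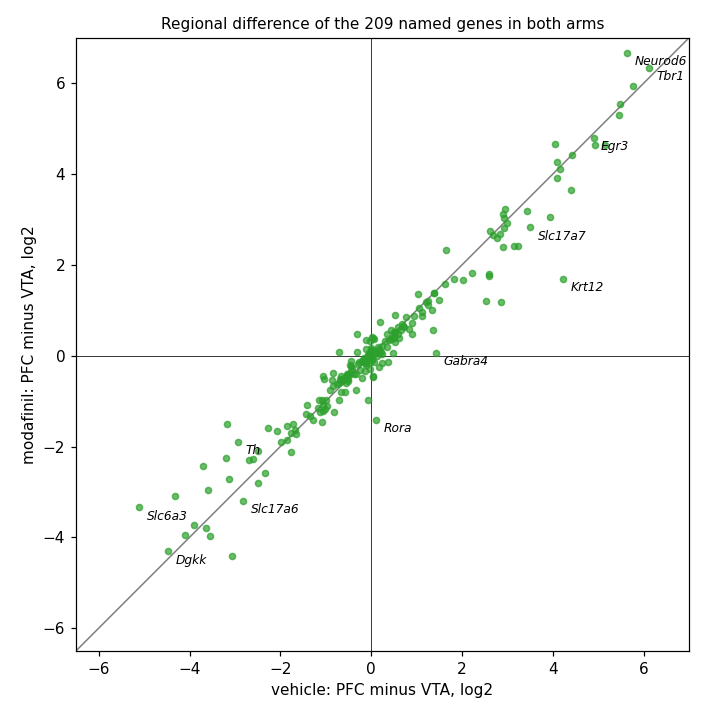
PFC minus VTA difference on the log2 scale in vehicle mice (horizontal) and in modafinil mice (vertical) for the 209 named genes tested in both; the grey line marks equal values. Tbr1 (6.12 and 6.34) lies on the line, and Slc6a3 (−5.10 and −3.34) and Krt12 (4.22 and 1.69) lie off it; each gene is drawn from 1 probe set, and 4 of the 7 probe sets of Rora, drawn off the line, were lower in vehicle mice too.

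Beside the NAC of vehicle mice, with all 18 vehicle arrays normalized together and no test made, the genes took different orders. Slc6a3 averaged 6.15 ± 0.35 (SD, n = 8) in PFC, 5.90 ± 0.12 (SD, n = 5) in NAC and 11.21 ± 0.94 (SD, n = 5) in VTA, so it was high in VTA alone of these regions, and Glra1 showed the same order with 4.83 ± 0.35, 4.45 ± 0.33 and 9.07 ± 0.35. Drd2 was highest in NAC (9.46 ± 0.14), next in VTA (8.28 ± 0.69) and lowest in PFC (5.40 ± 0.14), and Drd1 was highest in NAC (11.82 ± 0.32), with PFC at 8.42 ± 0.44 and VTA at 6.79 ± 0.12. Nts stood at about the same level in NAC (9.37 ± 0.68) and VTA (9.33 ± 0.41) and at 5.25 ± 0.50 in PFC. Egr3 (11.96 ± 0.15 in PFC, 11.22 ± 0.26 in NAC, 7.11 ± 0.66 in VTA) and Camk2a (13.29 ± 0.08, 12.42 ± 0.12 and 10.04 ± 0.48) were low in VTA beside both forebrain regions, and Mobp (10.15 ± 0.35, 12.47 ± 0.21 and 13.29 ± 0.16) was low in PFC beside both others. Cortical genes were also read in NAC punches and varied there: Tbr1 had levels of 8.84, 9.83, 8.75, 8.91 and 7.05 in NAC 1 to 5 and Neurod6 of 8.20, 9.53, 7.64, 8.29 and 5.10, NAC 5 being lowest and NAC 2 highest for both.

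**Figure D5:**
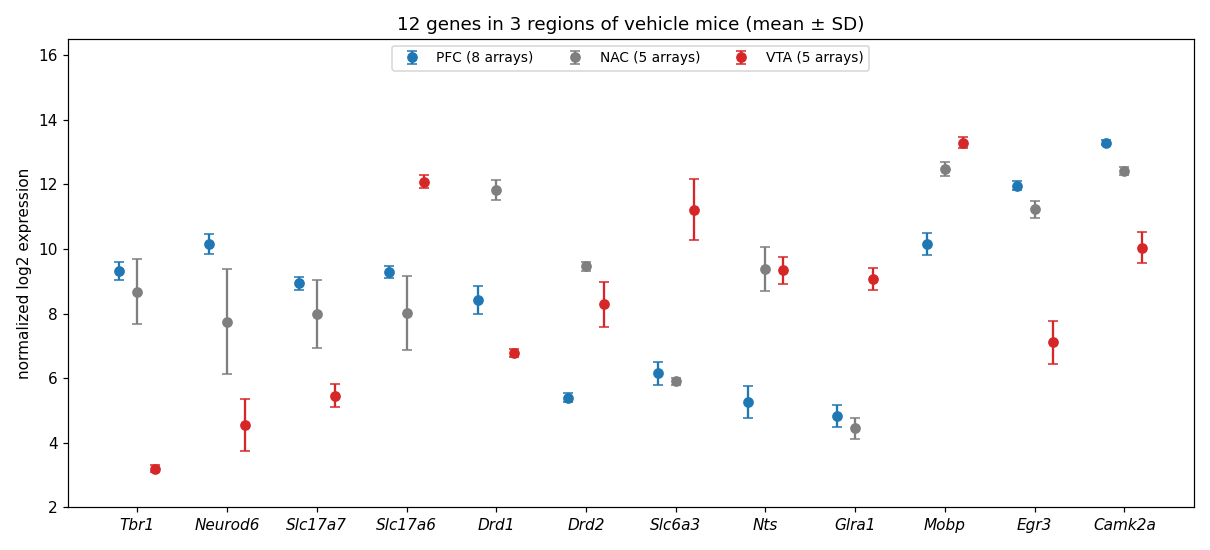
Normalized log2 level of 12 genes in PFC (blue), NAC (grey) and VTA (red) of vehicle mice, as mean ± SD over 8, 5 and 5 arrays. Slc6a3 and Glra1 are high in VTA alone of the 3 regions, Drd1 and Drd2 are highest in NAC, and Mobp is lowest in PFC.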

How the data were processed

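RNA from tissue punches was read on Affymetrix Mouse 430_2 arrays. The authors deposited log2 values for 45101 probe sets, made with RMA per the submitters' processing notes; no version is named there. Raw intensities, scan dates and behaviour were not analysed here.

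The 13 vehicle arrays were quantile-normalized together. Probe sets with a mean at or above the 40th percentile, controls left out, went into limma 3.58.1 (R 4.3.3; lmFit, then eBayes), unpaired, with Benjamini-Hochberg adjustment over all 27003 tested. The modafinil arrays were fitted likewise. No 2 arrays were identical (highest correlation 0.997). The scripts were tested on simulated data.

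Of the probe sets 34945 had 1 gene symbol, 932 several and 9160 none. For 34741 probe sets with 1 symbol the current symbol was found by the Entrez identifier, whether or not it had changed. A gene was read from its brightest probe set, and 5 of 101 named genes with several tested probe sets had calls in both directions (Kcnc1, Mbp, Nr4a2, Six3 and Uqcrb). The 30 lists were written from general knowledge, and the members and lists were chosen with earlier results of these data known. Named genes were the 15 largest differences in each direction, up to 4 called genes per direction and 2 uncalled ones per list, and a fixed set of region and cell markers.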

Additional observations from a re-analysis of the deposited data

Results flagged for a closer look

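Single arrays far from the rest of their own group were looked for among 118 named genes and 30 list means in each region. Of 296 sets of values 27 held such an array, and chance gives about 1 in 20.

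Of these 11 were PFC 4. Its levels were high for Slc18a2 (6.07, next 5.22), Slc6a3 (7.02, next 6.32), Meis2 (11.51, next 10.87), Gad1 (12.93, next 12.33), Slc32a1 (9.70, next 9.37) and Tcf7l2 (7.36, next 6.88), and low for Tbr1 (8.76, next 9.23), Fezf2 (8.27, next 9.25) and Trbv1 (7.06, next 8.29). The raphe list (6.64, next 6.5) and the vesicular transporter list (7.56, next 7.3) were also highest there. PFC 3 was low for Mobp (9.48, next 10.07), Mbp (12.32, next 12.76) and Ndufb5 (11.41, next 11.50), and PFC 8 for Krt12 (9.20, next 9.56).

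Among VTA arrays VTA 4 stood high for Slc17a7 (6.14, next 5.48), Prox1 (8.89, next 8.49), Stx1a (10.07, next 9.43) and Sv2b (10.25, next 9.70), and low for Penk (9.10, next 10.14). VTA 2 was high for Vip (7.57, next 6.5) and Slc1a2 (13.14, next 13.06), and low for Gria2 (10.83, next 11.01), Drd1 (6.63, next 6.87) and Cacna2d1 (9.91, next 10.53). VTA 3 was low for Fezf2 (5.13, next 5.33), and VTA 1 was high for the list of choroid plexus, meninges and blood (7.33, next 7.25).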

How the results depend on the processing

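In 2961 of 3010 refits of the 118 named genes under alternatives, the gene kept its call and direction or stayed uncalled. Direction was not compared where neither fit gave a call. In 19 the call was lost and in 24 it was gained. In 6 the sign changed with a call in the main fit, the refit or both. These 6 were all on the deposited scale: Gata2 (0.42), Grin2d (0.41), Glul (0.26), C1qa (0.27), Cldn5 (0.34) and Rgs5 (0.047). Counts of probe sets in vehicle mice were 9047 higher and 8697 lower, 1179 and 1006 of them by 1 or more; in modafinil mice they were 8457, 7959, 1051 and 969. On deposited values they were 21015, 2231, 3063 and 453 for vehicle and 21233, 2057, 2985 and 387 for modafinil. Without a filter they were 14420, 13684, 1619 and 1809 for vehicle and 13595, 12893, 1490 and 1761 for modafinil. With the filter at the 60th percentile, which tests fewer probe sets, those lower by 1 or more were 554 for vehicle and 551 for modafinil, and those higher by 1 or more 797 and 697. With 1 probe set per gene the vehicle counts were 4279, 4258, 570 and 493. The treat test against a difference of 1 gave 656 higher and 547 lower. Median centring, quantile normalization over all 36 arrays, trended or array-weighted variances, and a fit of all 18 vehicle arrays moved no vehicle count by over 1.5 times, nor did 3 alternatives added after seeing the data. Leaving out 1 array at a time gave 8636 to 9329, 8193 to 8906, 1161 to 1242 and 953 to 1064 for vehicle, and 7947 to 8463, 7416 to 8088, 1025 to 1086 and 930 to 1000 for modafinil. Same-numbered PFC and VTA arrays deviated together only weakly, with correlations of 0.026 to 0.095. VTA 1 and VTA 4 correlated best with the PFC array of their own number, and the other VTA arrays with another number. Regions of 1 mouse need not deviate alike, so these values cannot decide whether the numbers pair the samples. With replicate number as a replicate block 7949, 7853, 1184 and 998 were called for vehicle and 7497, 7173, 1040 and 988 for modafinil. Of the named genes the block ended the call of Slc32a1 (−0.47) and gave one to Kcnj6 (0.34). The 40th percentile filter leaves dim genes untested, and 13 arrays limit the precision.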
